A study of Aphis gossypii with 6 samples.

Results

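The genes described here encode the receptors and signalling peptides through which neuropeptides and biogenic amines act in the cotton aphid, Aphis gossypii, together with the opsins, which belong to the same receptor superfamily. They were chosen by words in their product descriptions (neuropeptide, allatostatin, tachykinin, octopamine, dopamine receptor, 5-hydroxytryptamine receptor, tyramine, muscarinic, metabotropic, FMRFamide, pyrokinin, kinin receptor, capa, orexin, cholecystokinin, gonadotropin-releasing, rhodopsin or opsin), and 55 of the 14013 listed genes matched. RNA of pooled whole bodies was sequenced in 6 libraries, 3 from RGL, a field-derived strain that withstands the pyrethroid beta-cypermethrin, and 3 from SGL, a sensitive strain whose genotype is labelled WT. Neither had been exposed to the insecticide, and the comparison asks which transcript levels differ between unexposed aphids of the strains. Stage and wing form are stated nowhere in the sources used here. With 1 strain per condition, resistance and any other difference between the strains cannot be told apart. Nothing in the labels says that replicates were reared separately, so p-values reflect only how much these samples vary, which may be technical. In whole bodies, fewer cells of a type and less RNA per cell cannot be told apart.

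Neuropeptides are cut from larger precursor proteins, often amidated at their end, and released by neurons and gut endocrine cells. Like octopamine, serotonin and dopamine they act mostly on G protein-coupled receptors, which signal through G proteins, cyclic AMP and calcium and are switched off by receptor kinases and arrestins. In insects these systems set feeding, movement, water balance and the use of stored energy, while opsins are the light-sensing members of the same superfamily.

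By product text, the 55 genes comprise 26 peptide receptors, 15 amine receptors, 2 muscarinic acetylcholine receptors, 2 metabotropic glutamate receptors, 7 opsins, 1 peptide precursor and 2 genes that matched by a word alone. The last pair are delta subunits of a phosphodiesterase, lipid-binding carriers named after rhodopsin, which are no receptors. The Pfam annotation, which the choice did not use, names the rhodopsin family of transmembrane receptors for 49 of the 55, against 73 of all 14013 genes. The KEGG pathway of neuroactive ligands and receptors is given for 30 of the 55, against 98 of all genes. Product names and the closest Swiss-Prot entry did not always name the same ligand. The 5-hydroxytryptamine receptor 2A gene LOC114120633 had the Bombyx mori octopamine receptor as its Swiss-Prot entry, and the D(2) dopamine receptor gene LOC114122493 had the Drosophila 5-hydroxytryptamine receptor 1. The neuropeptide Y receptor type 1-like gene LOC114130507 had the Drosophila SIFamide receptor, so ligand names are those of the product text and no more.

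Libraries held 31290134 to 46681719 counts. RGL replicate 1 stood apart from the other RGL libraries in many of these genes and over all genes, and calls that change without it are given with and without it. Most of these genes were expressed at low levels. Their FPKM (the deposited level per transcript length and library size), averaged over the 6 libraries, had a median of 2.29, against 9.47 over all genes. Only 7 reached 10 FPKM, and 11 stayed under 1 FPKM. The plot of levels by library shows each role spread over a wide range of levels. By far the highest was LOC114125464, an octopamine receptor-like gene with no Swiss-Prot entry, at 61.4 ± 15.5 FPKM in RGL and 54.9 ± 1.48 FPKM in SGL (mean ± SD, n = 3 each here and below). The phosphodiesterase delta gene LOC114130886 came next, at 20.5 ± 1.23 FPKM in RGL and 29.2 ± 2.60 FPKM in SGL. The tachykinin precursor LOC114128027 followed at 18.1 ± 5.55 FPKM in RGL and 24.3 ± 1.30 FPKM in SGL, which overlaps the delta gene within its SD in RGL but not in SGL. Next came the gonadotropin-releasing hormone receptor-like LOC114119520, at 24.7 ± 2.94 FPKM in RGL and 11.6 ± 0.837 FPKM in SGL, and the opsin-1-like LOC114127313, at 8.73 ± 2.57 FPKM in RGL and 17.8 ± 2.07 FPKM in SGL.

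**Figure D1:**
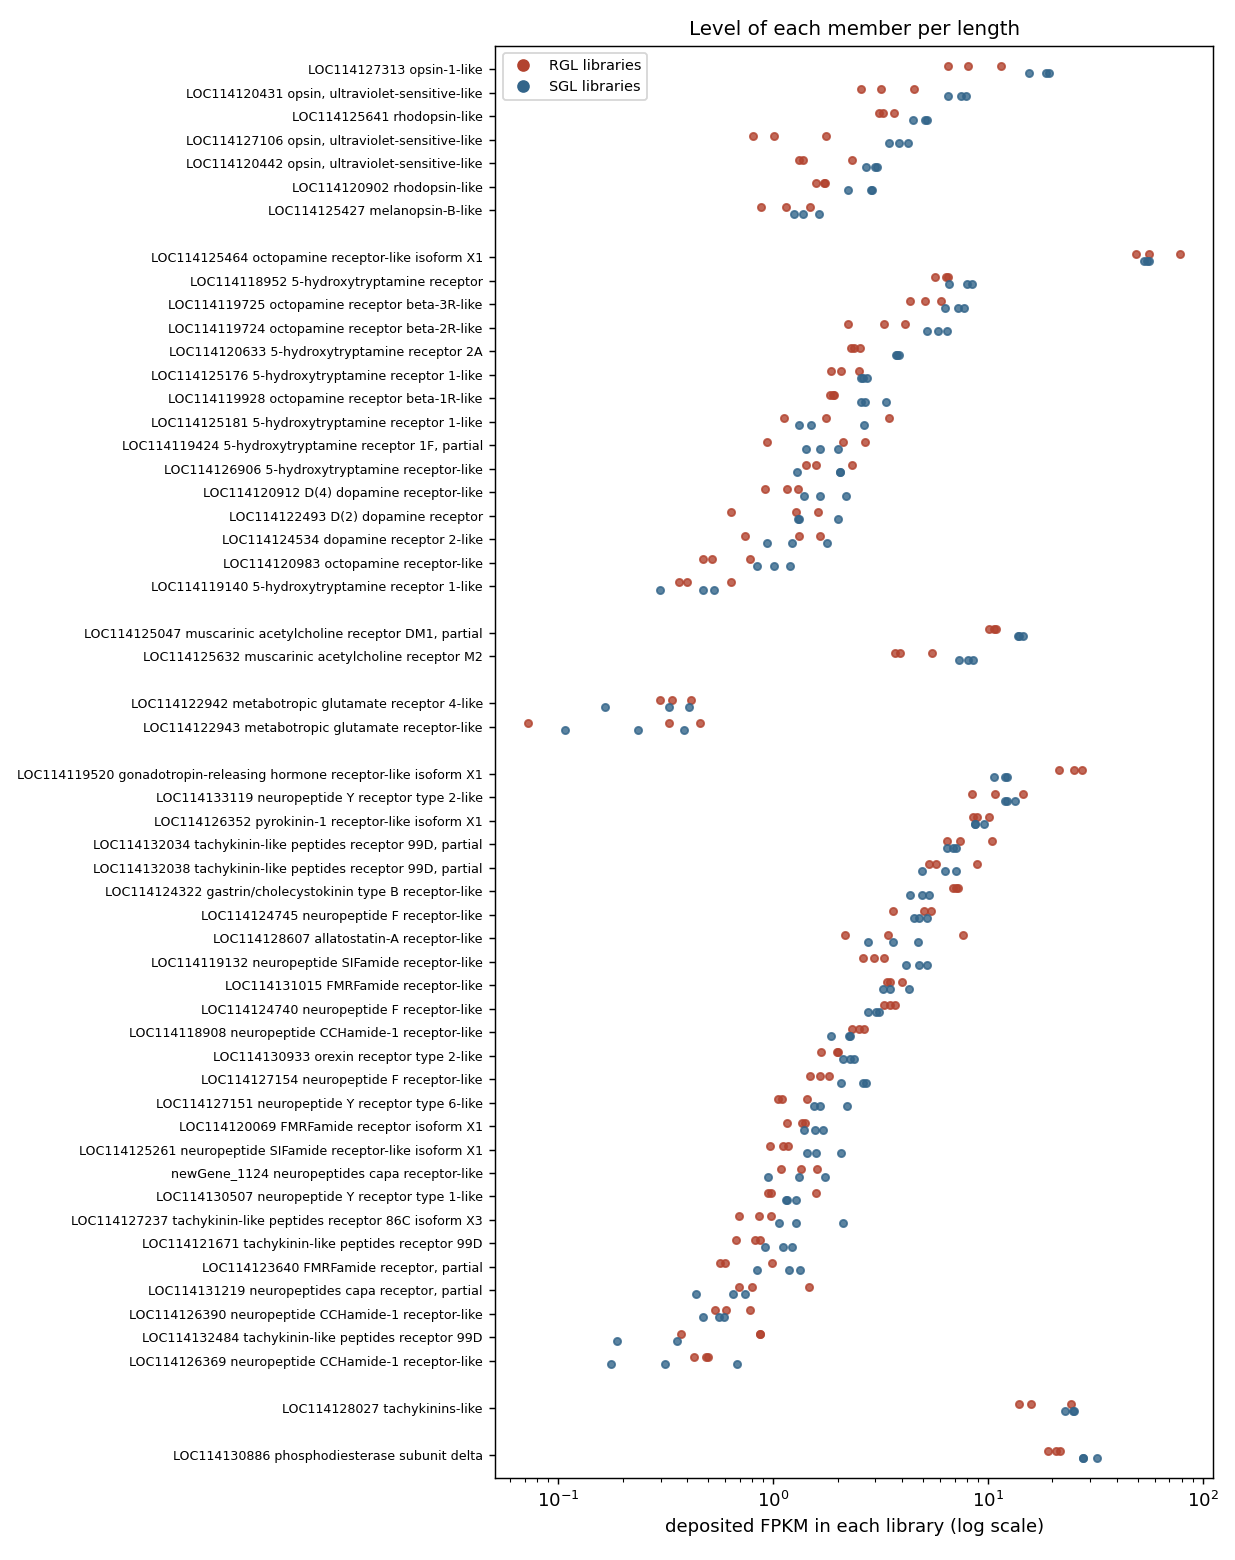
Deposited FPKM (log axis) of the 54 members with a count, 1 point per library, RGL above SGL in each row and genes ordered by level within each role. LOC114125464 lies near 58.1 FPKM, above all others, and a value of 0 in 1 SGL library of LOC114132484 is not drawn.

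Counts were compared between RGL and SGL with edgeR's quasi-likelihood test across all 11149 genes that passed a low-count filter, with Benjamini-Hochberg adjustment over all of them and a call at an adjusted p under 0.05. Of the 55 members 52 were tested. In RGL 2 of them were higher (3.85%, against 21.4% of all tested genes) and 9 were lower (17.3%, against 14.4%). The share that was lower lies near that of all genes, and the share that was higher lies below it. Members had a median SE of 0.23 on the log2 scale, against 0.15 over all tested genes, so small differences were harder to call among them. The median log2 fold change of RGL over SGL was -0.14 in members and -0.00374 in all tested genes. The libraries of the strains did not overlap, with RGL higher, in 5 of 52 members (9.62%, against 28.2% of all tested genes) and, with RGL lower, in 18 (34.6%, against 25.8%). In the other 29 tested members the libraries overlapped.

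The 2 higher genes were peptide receptors. The 9 lower ones were 4 opsins, 2 amine receptors, 1 muscarinic receptor, 1 peptide receptor and the phosphodiesterase delta gene. Of these 11, LOC114119520 alone was at least 2-fold higher and the opsin LOC114127106 alone at least 2-fold lower. The number that was lower changed when a single library was left out, and so did the share of all tested genes. It was 6 without RGL replicate 2 and 6 without RGL replicate 3, where 10.4% and 15.2% of all tested genes were lower. Without RGL replicate 1 it was 17 (24.9% of all tested genes were then lower), and without SGL replicates 1, 2 and 3 it was 4, 5 and 2, where 7.22%, 6.96% and 6.97% of all tested genes were lower. With libraries scaled by their totals alone, which moved the median of all genes by -0.15 on the log2 scale, 15 members were lower (20.8% of all tested genes). Of the 41 members tested and not called, 8 were called lower without RGL replicate 1, and 14 had the other sign under at least 1 alternative. The 2 higher genes were called in all 13 alternatives.

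**Figure D2:**
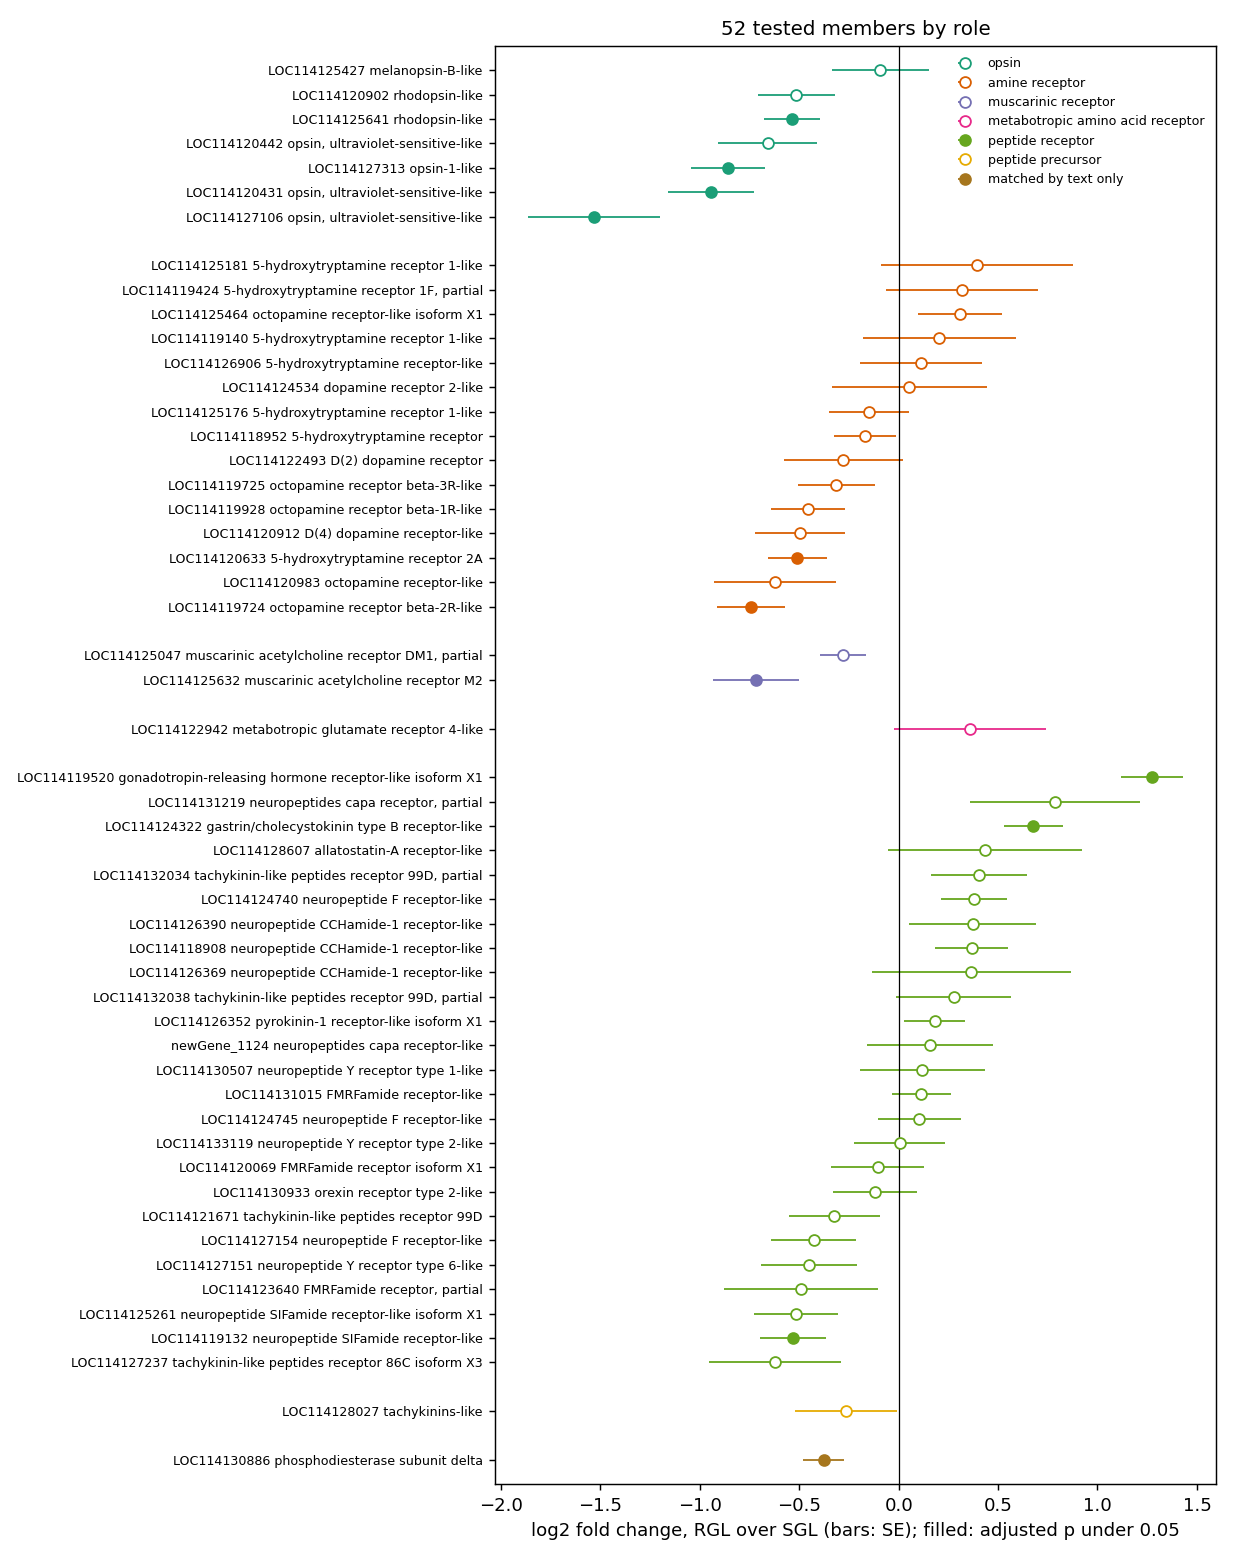
Log2 fold change of RGL over SGL with its SE for the 52 tested members, grouped by role; filled points have an adjusted p under 0.05. The opsins all lie left of 0, from -1.53 to -0.09, while peptide receptors lie on either side, from -0.62 to 1.27.

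**Figure D3:**
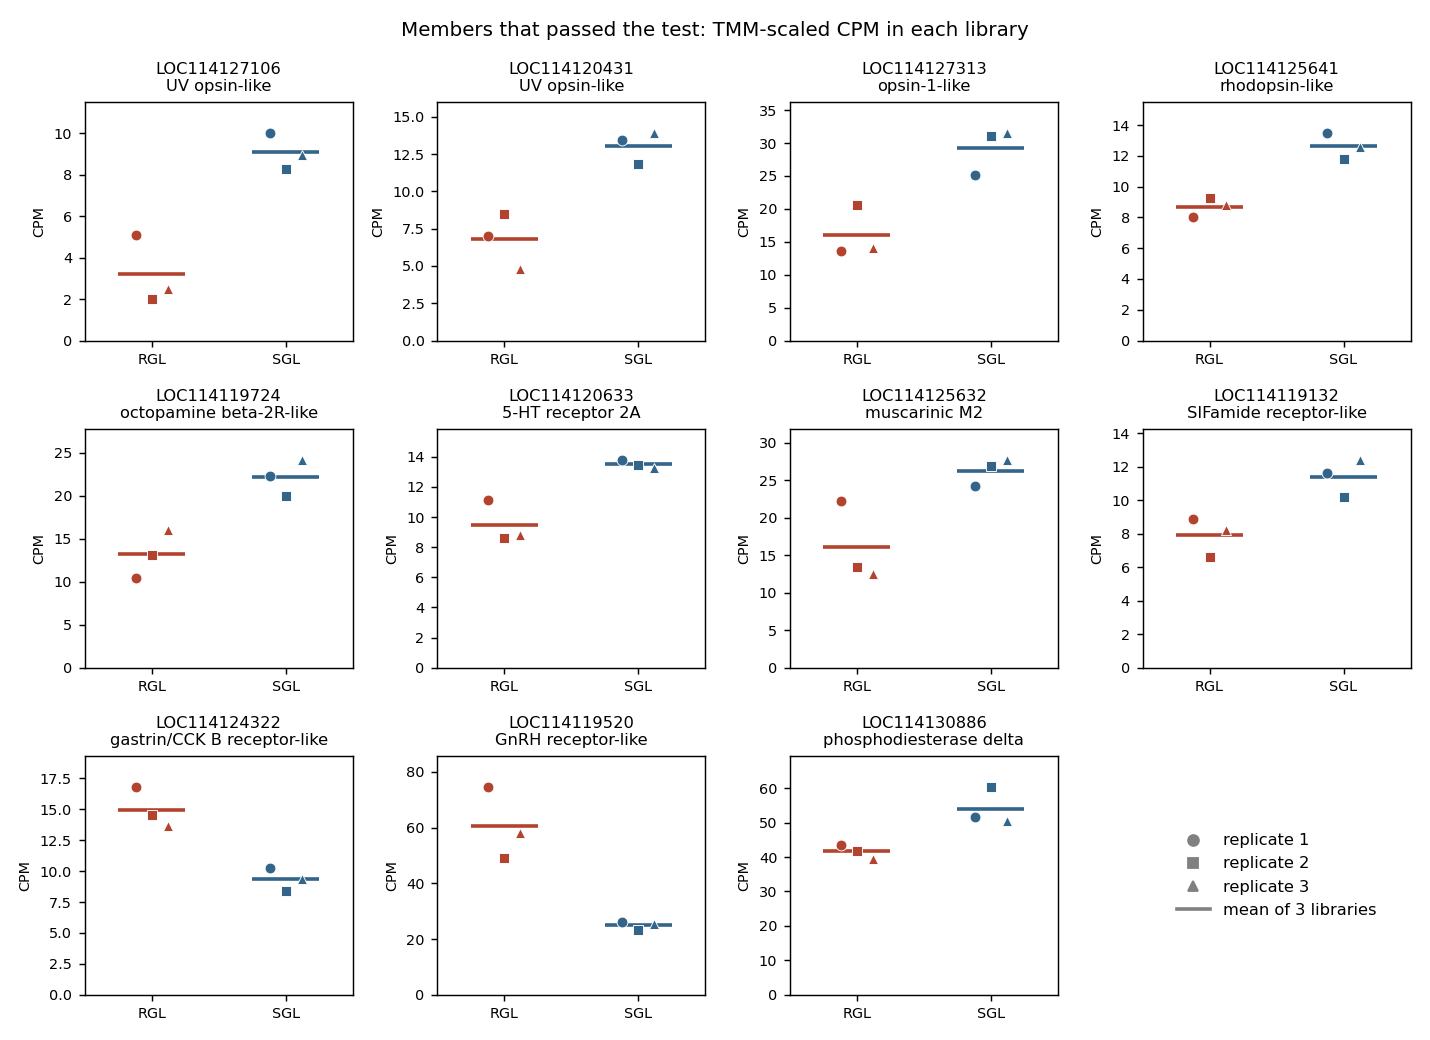
CPM (counts scaled to library size with edgeR's TMM factors) of the 11 members that passed the test, RGL at the left and SGL at the right of each panel; symbols mark the replicate and lines the mean of 3 libraries. The libraries of the strains do not overlap in any of the 11 panels, whose genes were picked by the test on these same libraries. Over all tested genes, called or not, they did not overlap in 28.2% with RGL higher and 25.8% with RGL lower.

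Only 1 peptide precursor was among the members. LOC114128027 encodes tachykinins, peptides of the brain and gut. It had 22.6, 10.99 and 12.4 CPM in RGL replicates 1 to 3, against 19.03, 18.9 and 16.9 CPM in SGL replicates 1 to 3, in those scaled counts. RGL replicate 1 was the highest of all 6 libraries and the other RGL libraries were the lowest, so the strains overlapped. The log2 fold change was -0.26 ± 0.26 (SE, edgeR adjusted p = 0.451), and -0.65 with an adjusted p of 0.000146 without RGL replicate 1.

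Of 25 tested peptide receptors, 2 rose and 1 fell in RGL (8% and 4%, both below the 21.4% and 14.4% of all tested genes), with a median log2 fold change of 0.12, and 16 had a positive and 9 a negative value. With library totals alone the median was -0.04, so its sign rested on the scaling, and 2 rose and 3 fell. Without RGL replicate 1, 4 fell (LOC114119132, LOC114127154, LOC114127237 and LOC114133119), where 24.9% of all tested genes fell. The same 2 rose each time, and 0 fell without any of the other 5 libraries (6.96% to 15.2% of all tested genes). The greatest rise was in LOC114119520, a gonadotropin-releasing hormone receptor-like gene. Insect relatives of that vertebrate receptor bind adipokinetic hormone, corazonin and related peptides, and the adipokinetic hormone receptor of Drosophila mobilises stored fat and sugar. LOC114119520 had 74.5, 49.01 and 57.99 CPM in RGL replicates 1 to 3, against 26.3, 23.3 and 25.5 CPM in SGL replicates 1 to 3. All RGL libraries lay far above all SGL libraries, and the fold change was 2.42, or 1.27 ± 0.16 on the log2 scale (adjusted p = 0.000580). RGL replicate 1 was the highest of the RGL libraries, and the log2 value without it was 1.10.

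The gastrin/cholecystokinin type B receptor-like gene LOC114124322 had 16.8, 14.5 and 13.6 CPM in RGL replicates 1 to 3, against 10.3, 8.43 and 9.34 CPM in SGL replicates 1 to 3. Receptors of this kind in Drosophila bind sulfakinins, which act in satiety, although the closest Swiss-Prot entry here was a QRFP-like peptide receptor of the lancelet Branchiostoma floridae. All RGL libraries were above all SGL libraries, and the log2 fold change was 0.68 ± 0.15 (adjusted p = 0.00888). A gene with the same Swiss-Prot entry, the orexin receptor type 2-like LOC114130933, had a log2 fold change of -0.12 ± 0.21 (adjusted p = 0.683) and overlapping libraries.

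The neuropeptide SIFamide receptor-like gene LOC114119132 fell. SIFamide is a brain peptide that modulates feeding and courtship in Drosophila. The gene had 8.87, 6.63 and 8.21 CPM in RGL replicates 1 to 3, against 11.6, 10.2 and 12.4 CPM in SGL replicates 1 to 3. The RGL libraries lay below all SGL libraries, with a log2 fold change of -0.53 ± 0.17 (adjusted p = 0.0381). The call was lost without RGL replicates 2 and 3 (adjusted p = 0.117 and 0.0556) and without SGL replicates 1, 2 and 3 (adjusted p = 0.122, 0.0673 and 0.136). A second SIFamide receptor-like gene, LOC114125261, had 2.98, 3.06 and 2.87 CPM in RGL replicates 1 to 3, against 3.61, 5.24 and 3.89 CPM in SGL replicates 1 to 3. Its libraries did not overlap and its log2 fold change was close to that of the first, -0.52 ± 0.21, but it did not pass (adjusted p = 0.0895). With library totals alone it was called lower, at -0.66 ± 0.22 (adjusted p = 0.0444). The neuropeptide Y receptor type 1-like LOC114130507, with the same Swiss-Prot entry, had a log2 fold change of 0.12 ± 0.32 (edgeR adjusted p = 0.793) and overlapping libraries.

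Among 6 genes named for neuropeptide F or Y receptors, which act in feeding in Drosophila, edgeR, DESeq2 and limma-voom each called 0. Only 1 had an unadjusted edgeR p under 0.05. For this family and the next 2, edgeR called 21.4% of all tested genes higher and 14.4% lower. Of the 6, 2 fell without RGL replicate 1 (24.9% of all tested genes), and 1 fell with library totals alone (20.8%). Their log2 fold changes ran from -0.45 in LOC114127151 to 0.38 in LOC114124740. The most abundant of the 6, LOC114133119, had 53.2, 33.7 and 26.2 CPM in RGL replicates 1 to 3, against 36.8, 36.1 and 39.5 CPM in SGL replicates 1 to 3, with RGL libraries on either side of the SGL ones (log2 fold change 0.00536, SE 0.23). It fell without RGL replicate 1, at -0.32 ± 0.10 (adjusted p = 0.0130). The neuropeptide F receptor-like LOC114127154 had 4.62, 3.16 and 3.52 CPM in RGL replicates 1 to 3, against 5.39, 4.29 and 5.45 CPM in SGL replicates 1 to 3. It did not pass in the comparison of all 6 libraries (-0.43 ± 0.21, edgeR adjusted p = 0.152) but fell without RGL replicate 1, at -0.59 ± 0.20 (adjusted p = 0.0194), and with library totals alone, at -0.59 ± 0.20 (adjusted p = 0.0498). The 3 CCHamide-1 receptor-like genes, for a peptide of gut and brain, had nearly equal log2 fold changes, 0.37 ± 0.50, 0.37 ± 0.19 and 0.37 ± 0.32, but only LOC114118908 had libraries that did not overlap, and 0 passed by any of the 3 tools. Among 5 genes named for tachykinin receptors, 4 were tested and 0 passed by edgeR, DESeq2 or limma-voom (0 with an unadjusted p under 0.05), with log2 fold changes from -0.62 in the 86C-type LOC114127237 to 0.40 in the 99D-type LOC114132034. LOC114127237 was called lower without RGL replicate 1, at -0.83 ± 0.32 (adjusted p = 0.0347). The fifth, LOC114132484, had 17, 24 and 9 counts in RGL replicates 1 to 3, against 0, 4 and 7 in SGL replicates 1 to 3. The low-count filter left it out of the comparison of all 6 libraries. It was tested in 6 of the alternatives, where its adjusted p ran from 0.0638 to 0.186 and it was called in 0. Reads of such close copies may be shared, and the treatment of shared reads is stated nowhere in the sources used here.

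The remaining peptide receptors also stayed below the threshold. The 3 genes for capa or pyrokinin receptors, which in Drosophila act on the Malpighian tubules and on muscle, had values of 0.78 (LOC114131219), 0.18 (LOC114126352) and 0.16 (Aphis_gossypii_newGene_1124). LOC114131219 rested on 10 to 42 counts a library, with an SE of 0.43. The 3 FMRFamide receptor genes, for peptides that act on muscle, ran from -0.49 in LOC114123640 to 0.11 in LOC114131015. The allatostatin-A receptor-like gene LOC114128607, for a peptide that curbs feeding in Drosophila, had 9.31, 3.53 and 2.21 CPM in RGL replicates 1 to 3, against 4.68, 2.78 and 3.53 CPM in SGL replicates 1 to 3. RGL replicate 1 was far above the other RGL libraries there, and the log2 fold change of 0.43 ± 0.49 did not pass (adjusted p = 0.518) and was -0.34 ± 0.26 (adjusted p = 0.285) without that library.

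Of 15 amine receptors, 0 rose and 2 fell in RGL by edgeR, DESeq2 and limma-voom alike (0 and 3 with an unadjusted edgeR p under 0.05). The 13.3% that fell lies near the 14.4% of all tested genes. The number that fell was 4 without RGL replicate 1 (24.9% of all tested genes), 0 without SGL replicate 3 (6.97%) and 1 without each of the other libraries. The median log2 fold change was -0.17. Octopamine, the invertebrate counterpart of noradrenaline, acts through alpha-like and beta-like receptors. The octopamine receptor beta-2R-like gene LOC114119724 had 10.5, 13.1 and 16.05 CPM in RGL replicates 1 to 3, against 22.3, 19.95 and 24.1 CPM in SGL replicates 1 to 3. RGL replicate 1 was the lowest of all libraries and no RGL library reached the SGL range, giving a log2 fold change of -0.74 ± 0.17 (adjusted p = 0.0116, and 0.0514 without SGL replicate 3). The beta-1R-like LOC114119928 had 4.06, 3.62 and 3.52 CPM in RGL replicates 1 to 3, against 4.60, 4.84 and 5.90 CPM in SGL replicates 1 to 3, likewise without overlap, but its value of -0.45 ± 0.19 did not pass (adjusted p = 0.0900). It was called lower without RGL replicate 1, at -0.52 ± 0.20 (adjusted p = 0.0363), and with library totals alone, at -0.61 ± 0.19 (adjusted p = 0.0354). A further octopamine receptor-like gene, LOC114120983, whose closest Swiss-Prot entry is an orphan receptor of a barnacle, had 1.08, 1.39 and 0.819 CPM in RGL replicates 1 to 3, against 1.70, 1.42 and 1.98 CPM in SGL replicates 1 to 3. It too did not overlap, with -0.62 ± 0.31 (adjusted p = 0.145). The beta-3R-like LOC114119725 had a log2 fold change of -0.31 ± 0.19 with overlapping libraries (adjusted p = 0.239), and it was called lower without RGL replicate 1, at -0.54 ± 0.13 (adjusted p = 0.00153).

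The abundant octopamine receptor-like gene LOC114125464 had 274, 166 and 145 CPM in RGL replicates 1 to 3, against 153, 159 and 159 CPM in SGL replicates 1 to 3. RGL replicate 1 stood well above the other 5 libraries, which lay close together. The log2 fold change was 0.31 ± 0.21 (adjusted p = 0.288) and -0.018 without RGL replicate 1, so its sign rested on that library.

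Serotonin acts on 5-hydroxytryptamine receptors, and 7 genes carried that name. LOC114120633, the 5-hydroxytryptamine receptor 2A gene, had 11.1, 8.58 and 8.81 CPM in RGL replicates 1 to 3, against 13.8, 13.4 and 13.3 CPM in SGL replicates 1 to 3. The SGL libraries were nearly equal and all above the RGL libraries, with a log2 fold change of -0.51 ± 0.15 (adjusted p = 0.0292). The call was lost without RGL replicates 2 and 3 (adjusted p = 0.100 and 0.0669) and without SGL replicates 1, 2 and 3 (adjusted p = 0.107, 0.0939 and 0.0890). In the reference assembly ASM2018417v2 it lies directly beside LOC114122493, the D(2) dopamine receptor gene, which had 2.79, 6.03 and 4.69 CPM in RGL replicates 1 to 3, against 4.73, 4.75 and 7.07 CPM in SGL replicates 1 to 3. The strains overlapped in that neighbour (log2 fold change -0.28 ± 0.30, adjusted p = 0.497). The other 6 serotonin receptor genes had log2 fold changes from -0.17 in LOC114118952 to 0.39 in LOC114125181, and the 3 dopamine receptor genes from -0.50 in LOC114120912 to 0.05 in LOC114124534. All 9 were short of the threshold.

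Muscarinic receptors give the slow response to acetylcholine, the main excitatory transmitter of the insect brain. The M2-named gene LOC114125632 had 22.3, 13.4 and 12.5 CPM in RGL replicates 1 to 3, against 24.2, 26.9 and 27.7 CPM in SGL replicates 1 to 3. RGL replicates 2 and 3 were far below SGL and RGL replicate 1 just below, with a log2 fold change of -0.72 ± 0.22 (adjusted p = 0.0334). The value was -1.02 without RGL replicate 1. The call was lost without RGL replicates 2 and 3 (adjusted p = 0.114 and 0.0716) and without SGL replicates 1, 2 and 3 (adjusted p = 0.0742, 0.106 and 0.111). The DM1-named gene LOC114125047 had 26.3, 21.3 and 22.7 CPM in RGL replicates 1 to 3, against 27.9, 29.6 and 27.6 CPM in SGL replicates 1 to 3. All RGL libraries were below all SGL libraries, but the difference of -0.28 ± 0.12 did not pass (adjusted p = 0.0975). It passed without RGL replicate 1 (adjusted p = 0.00310) and with library totals alone (adjusted p = 0.0194). The metabotropic glutamate receptor genes were near the limit of detection. LOC114122942 had 26, 43 and 41 counts in RGL replicates 1 to 3, against 17, 30 and 35 in SGL replicates 1 to 3, and LOC114122943, with 1, 7 and 8 counts in RGL and 2, 4 and 6 in SGL, was not tested.

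Of the opsins 4 of 7 were lower in RGL. All 7 opsin genes were tested, and 4 fell and 0 rose by edgeR, DESeq2 and limma-voom alike (6 and 0 with an unadjusted edgeR p under 0.05), where 14.4% of all tested genes fell. All 7 log2 fold changes were negative, with a median of -0.66. The summed CPM of the 7 was 44.3, 51.5 and 37.8 in RGL replicates 1 to 3, against 76.2, 74.6 and 80.5 in SGL replicates 1 to 3. The greatest fall was in the ultraviolet-sensitive-like opsin LOC114127106, of a class that absorbs ultraviolet light in insect eyes. It had 5.10, 1.99 and 2.48 CPM in RGL replicates 1 to 3, against 10.01, 8.28 and 8.95 CPM in SGL replicates 1 to 3. The highest RGL library was well below the lowest SGL library, and the level in RGL was 2.89-fold lower (-1.53 ± 0.33 on the log2 scale, adjusted p = 0.00836). RGL replicate 1 was above the other RGL libraries, and without it the log2 value was -2.03.

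A second ultraviolet-sensitive-like opsin, LOC114120431, had 7.04, 8.52 and 4.78 CPM in RGL replicates 1 to 3, against 13.4, 11.8 and 13.9 CPM in SGL replicates 1 to 3. Here RGL replicate 2 was the highest of the RGL libraries, still below all SGL libraries, and the log2 fold change was -0.94 ± 0.22 (adjusted p = 0.0113, and 0.0531 without SGL replicate 3). The third, LOC114120442, lies 1 gene away from it in the reference assembly. It had 2.27, 3.25 and 1.83 CPM in RGL replicates 1 to 3, against 4.08, 3.65 and 3.95 CPM in SGL replicates 1 to 3, the same order of the RGL libraries as its neighbour and no overlap, and a log2 fold change of -0.66 ± 0.25 that did not pass (adjusted p = 0.0712). It was called lower without RGL replicate 2, at -0.94 ± 0.25 (adjusted p = 0.0293), and with library totals alone, at -0.80 ± 0.26 (adjusted p = 0.0436).

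The opsin-1-like gene LOC114127313, named for a visual opsin of the locust Schistocerca gregaria, was the most abundant opsin. It had 13.6, 20.6 and 14.00 CPM in RGL replicates 1 to 3, against 25.1, 31.01 and 31.5 CPM in SGL replicates 1 to 3. No library of RGL reached the SGL range, and the log2 fold change was -0.86 ± 0.19 (adjusted p = 0.00851). Of 2 rhodopsin-like genes, whose closest Swiss-Prot entry is a Gq-coupled rhodopsin of a scallop, LOC114125641 fell. It had 8.05, 9.23 and 8.79 CPM in RGL replicates 1 to 3, against 13.5, 11.8 and 12.6 CPM in SGL replicates 1 to 3, with tight and separate groups and a log2 fold change of -0.54 ± 0.14 (adjusted p = 0.0181, and 0.0894 and 0.0663 without SGL replicates 1 and 3). The other, LOC114120902, had a log2 fold change of -0.51 ± 0.19 without overlap (adjusted p = 0.0690). It was called lower without RGL replicate 1, at -0.62 ± 0.20 (adjusted p = 0.0128), and with library totals alone, at -0.67 ± 0.19 (adjusted p = 0.0249). The melanopsin-B-like LOC114125427 overlapped between strains and had the value closest to 0, -0.09 ± 0.24 (adjusted p = 0.795). Its value was positive without RGL replicate 3 and without SGL replicate 1, while those of the other 6 opsins were negative in all 13 alternatives. Without SGL replicate 3, where 6.97% of all tested genes were lower, only LOC114127106 and LOC114127313 of the opsins were called.

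Of 14 tested markers of phototransduction and the eye, 2 rose and 1 fell (14.3% and 7.14%, against 21.4% and 14.4% of all tested genes), with a median log2 fold change of -0.13. Their summed CPM ranged from 510.2 to 877 in RGL and from 523 to 534 in SGL, and none of the 15 listed was at 0 in all libraries. Much of that sum was eyes absent, LOC114125132, with 675, 379.6 and 346 CPM in RGL replicates 1 to 3, against 365, 368 and 357 CPM in SGL replicates 1 to 3. The 3 chaoptin genes, which encode a photoreceptor surface protein in Drosophila, had log2 fold changes of -0.21 (LOC114120263), -0.36 (LOC114122093) and -0.37 (LOC114122447), and none passed (lowest edgeR adjusted p = 0.0587). Of the 2 that rose, 1 was the transient-receptor-potential-like channel LOC114127134, with a log2 fold change of 1.22 ± 0.14 (edgeR adjusted p = 0.000382). The log2 fold changes of the 14 ran from -0.67 to 1.22. With library totals alone 2 eye markers rose and 5 fell (15.8% and 20.8% of all tested genes), and with DESeq2 2 and 3 (20.5% and 16.2%). Without RGL replicate 1, 5 fell (24.9% of all tested genes), and without each of the other 5 libraries 0 fell (6.96% to 15.2%). Without SGL replicates 2 and 3 only 1 rose each time (14.9% and 14.1%). The part of eye tissue in the opsin values was not tested.

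The phosphodiesterase delta gene LOC114130886, matched by the word rhodopsin, had 43.6, 41.8 and 39.6 CPM in RGL replicates 1 to 3, against 51.6, 60.2 and 50.4 CPM in SGL replicates 1 to 3. The groups did not overlap, and the log2 fold change was -0.38 ± 0.10 (adjusted p = 0.0227). The call was lost without RGL replicate 2 and without SGL replicates 1, 2 and 3 (adjusted p = 0.0647, 0.0602, 0.107 and 0.0503). Its namesake LOC114122272 had 0 counts in all 6 libraries.

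RGL replicate 1 stood apart from the other RGL libraries in these genes. It was the highest RGL library in 33 of 52 tested members (63.5%), against 4686 of 11149 tested genes (42.03%). Its median log2 ratio to the mean of the other RGL libraries was 0.35 in members and -0.02 in all tested genes. The shift was 0.40 in peptide receptors, where it was highest in 20 of 25, and 0.30 in amine receptors. Opsins differed from this pattern in that RGL replicate 2 was the highest RGL library in 5 of 7 and RGL replicate 3 the lowest in 4. A like shift was seen in genes outside the set. The same ratio of RGL replicate 1 was 0.34 over 29 other peptide hormone and receptor genes, where it was the highest RGL library in 20. It was 0.25 over 36 peptide-processing genes (highest in 24) and 0.22 over 33 fast transmission subunits (highest in 19). It was 0.05 over 16 neuron markers, 0.01 over 25 muscle markers, 0.29 over eye markers and -0.14 over 19 embryo and germline markers. It had the lowest TMM factor of the 6 libraries, 0.858, against 0.988 to 1.06 in the others. What part these values have in the calls was not tested. The difference between peptide receptors and opsins was not tested either.

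**Figure D4:**
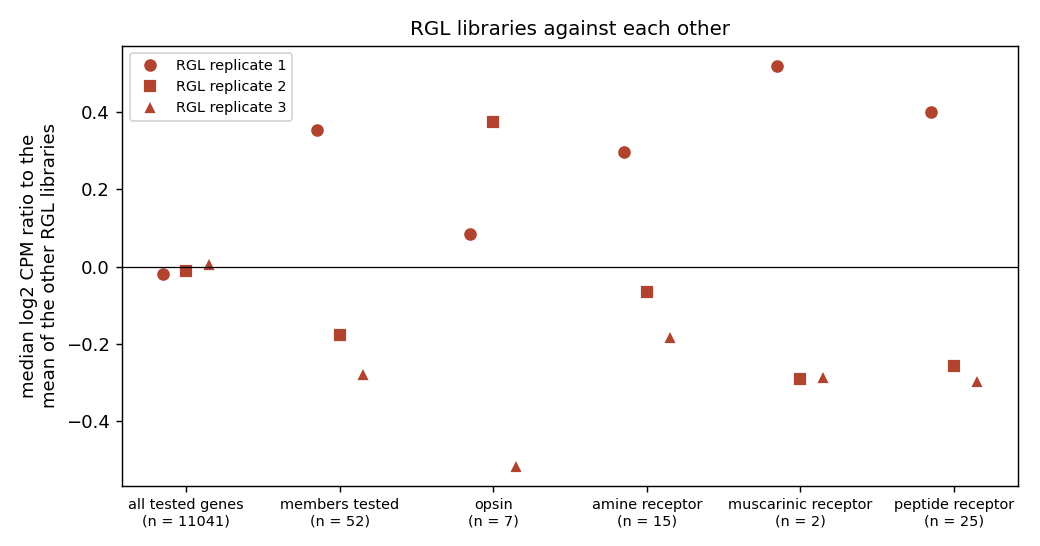
Median log2 CPM ratio of each RGL library to the mean of the other RGL libraries, over the tested genes with a count in all 3 RGL libraries (n below each group). RGL replicate 1 lies at 0.40 for peptide receptors and -0.02 for all tested genes; for opsins RGL replicate 2 is the highest, at 0.37.

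Genes that make, carry and relay the signals of these receptors were followed as lists of product words, members left out. The counts of all lists stand beside these shares. Of all tested genes, 28.6%, 17.1% and 21.8% rose and 24.9%, 10.4% and 15.2% fell without RGL replicates 1, 2 and 3. Without SGL replicates 1, 2 and 3, shares of 14.8%, 14.9% and 14.1% rose and 7.22%, 6.96% and 6.97% fell. With library totals alone 15.8% rose and 20.8% fell, and with DESeq2 20.5% and 16.2%. Among enzymes that cut, amidate or degrade peptides, 14 of 36 tested rose and 5 fell (38.9% and 13.9%, against 21.4% and 14.4% of all tested genes), with a median log2 fold change of 0.22. The greatest rise was in the carboxypeptidase M-like LOC114126292, of a family that trims basic residues from peptide ends, with 18.03, 14.6 and 12.1 CPM in RGL replicates 1 to 3, against 5.02, 3.91 and 3.98 CPM in SGL replicates 1 to 3 (1.79 ± 0.20 on the log2 scale, adjusted p = 0.000369). Among the called genes of the list, the greatest fall was in an endothelin-converting enzyme homolog, LOC114132109, a metallopeptidase, with 33.3, 35.8 and 41.97 CPM in RGL replicates 1 to 3, against 49.96, 61.04 and 57.7 CPM in SGL replicates 1 to 3 (-0.60 ± 0.12, adjusted p = 0.00651). These families also hold digestive and general peptidases. The split was 13 and 8 with library totals alone. The number that fell was 10, 2 and 3 without RGL replicates 1, 2 and 3 and 1 without each SGL library in turn.

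In amine synthesis, transport and breakdown 6 of 18 genes rose and 4 fell (33.3% and 22.2%, against 21.4% and 14.4% of all tested genes). The greatest rise, 1.88 ± 0.43, was in an aromatic-L-amino-acid decarboxylase-like gene, LOC114119007, of the enzyme kind that makes dopamine and serotonin and also serves cuticle tanning. It is a gene of low level, with 0.596, 0.910 and 0.682 CPM in RGL replicates 1 to 3, against 0.183, 0.261 and 0.150 CPM in SGL replicates 1 to 3. The synaptic vesicular amine transporter-like LOC114127647, of the family that loads amines into vesicles, had 2.46, 1.63 and 2.51 CPM in RGL replicates 1 to 3, against 5.80, 5.53 and 4.22 CPM in SGL replicates 1 to 3. All RGL libraries lay below all SGL libraries, with a log2 fold change of -1.25 ± 0.24 (edgeR adjusted p = 0.00535). The split was 4 and 5 with library totals alone. Without SGL replicate 1 only 3 rose, and without SGL replicate 3 only 2 fell, while 6 rose and 5 fell without RGL replicate 1.

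Downstream of the receptors, 2 of 25 G protein and effector genes rose and 9 fell (8% and 36.00%, against 21.4% and 14.4% of all tested genes), with a median of -0.23. The inositol 1,4,5-trisphosphate receptor LOC114123271, which releases calcium from stores, rose by 0.46 ± 0.08. The inhibitor of cyclic AMP-dependent protein kinase LOC114128172 had 56.6, 56.8 and 50.8 CPM in RGL replicates 1 to 3, against 107, 107 and 103 CPM in SGL replicates 1 to 3, separate and tight groups (-0.95 ± 0.09, adjusted p = 0.000121). With library totals alone 1 rose and 13 fell. The number that fell was 12 without RGL replicate 1 (24.9% of all tested genes), and 5 and 4 without SGL replicates 2 and 3 (6.96% and 6.97%). The number that rose was 4 without RGL replicate 1, and 1 without RGL replicate 2 and without SGL replicates 2 and 3. Of 10 genes for receptor kinases, arrestins and regulators of G protein signalling, which end the signal, 5 fell and 0 rose by edgeR, DESeq2 and limma-voom alike (5 and 0 with an unadjusted edgeR p under 0.05). The 50% that fell stood beside 14.4% of all tested genes, and the 0% that rose beside 21.4%. The regulator of G-protein signaling 7-like gene LOC114128813 fell furthest, with 36.3, 33.8 and 39.3 CPM in RGL replicates 1 to 3, against 63.8, 67.8 and 68.4 CPM in SGL replicates 1 to 3 (-0.87 ± 0.10, adjusted p = 0.000317). The number that fell was 6 without RGL replicate 1 (24.9% of all tested genes). It was 3, 2 and 2 without SGL replicates 1, 2 and 3 (7.22%, 6.96% and 6.97%).

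Other peptide hormones and their receptors, such as insulin-like, bursicon and diuretic hormone genes, had 3 rises and 5 falls among 29 (10.3% and 17.2%, against 21.4% and 14.4% of all tested genes). The orcokinin precursor LOC114128667 had 22.5, 27.6 and 24.01 CPM in RGL replicates 1 to 3, against 44.6, 42.05 and 42.9 CPM in SGL replicates 1 to 3. It fell by 0.80 ± 0.11 (adjusted p = 0.000926). The calcitonin gene-related peptide type 1 receptor-like LOC114128312, of the family that holds insect diuretic hormone receptors, had 3.06, 2.41 and 1.88 CPM in RGL replicates 1 to 3, against 1.49, 1.01 and 0.808 CPM in SGL replicates 1 to 3 and rose by 1.13 ± 0.32 (adjusted p = 0.0262). The number that fell was 12 without RGL replicate 1 (24.9% of all tested genes) and 3 without each SGL library in turn (6.96% to 7.22%). Among 12 other G protein-coupled receptors 2 rose and 2 fell (16.7% in each direction, against the same 21.4% and 14.4%), of which the Methuselah-like receptor LOC114121549 rose by 0.39 ± 0.12 and LOC114126333, named for Drosophila CG31760, had -0.66 ± 0.13. With library totals alone 0 rose and 2 fell, and with DESeq2 2 and 4. Without RGL replicate 1, 6 of them fell, and without RGL replicate 2 and each SGL library 1 fell, while 1 rose without RGL replicate 2 and 0 without RGL replicate 3 or any SGL library.

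Ion channel receptors answer some of the same transmitters on a faster scale. Of 33 tested subunits of acetylcholine, glutamate, GABA and glycine-type receptors, 3 rose and 14 fell (9.09% and 42.4%, against 21.4% and 14.4% of all tested genes), with a median of -0.34. The acetylcholine receptor subunit alpha-like LOC114125369 rose most, by 1.33 ± 0.21 on the log2 scale, and the alpha-7-like LOC114132690 had the lowest value, -1.01 ± 0.22. The number that fell was 18 without RGL replicate 1 (24.9% of all tested genes). It was 9 without each of RGL replicates 2 and 3 (10.4% and 15.2%). It was 9, 7 and 8 without SGL replicates 1, 2 and 3 (7.22%, 6.96% and 6.97%). Of 16 neuron markers, such as choline O-acetyltransferase, synapsin and complexin genes, 5 rose and 5 fell (31.2% each, against 21.4% and 14.4% of all tested genes). Their summed CPM ranged from 736 to 819 in RGL and from 798 to 829 in SGL, with none at 0. Without RGL replicate 1, 8 neuron markers fell, and 3, 1, 2 and 1 fell without RGL replicate 2 and SGL replicates 1, 2 and 3, while 3 rose without SGL replicate 3.

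Muscle markers had 6 rises and 6 falls among 25 (24.00% each, against 21.4% and 14.4% of all tested genes). Embryo and germline markers had 1 and 1 among 19 (5.26% each, against the same shares). Summed CPM of muscle markers was 18051 to 20563 in RGL and 16864 to 17998 in SGL. For embryo and germline markers it was 756 to 813 in RGL and 768 to 787 in SGL. With library totals alone 3 muscle markers rose and 7 fell, and 0 embryo markers rose and 2 fell. The shares of all tested genes were then 15.8% and 20.8%. Without RGL replicate 2 or any SGL library 3 muscle markers rose (14.1% to 17.1% of all tested genes). Without SGL replicates 2 and 3, 3 muscle markers fell (6.96% and 6.97%). With RGL replicate 1 left out, 9 muscle markers rose and 7 fell (28.6% and 24.9%). Without RGL replicate 1, 4 embryo markers rose and 4 fell, and without any other library 0 rose (14.1% to 21.8%). Without RGL replicate 2 or any SGL library 0 embryo markers fell (6.96% to 10.4%). The part of tissue composition in the receptor values was not tested.

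**Figure D5:**
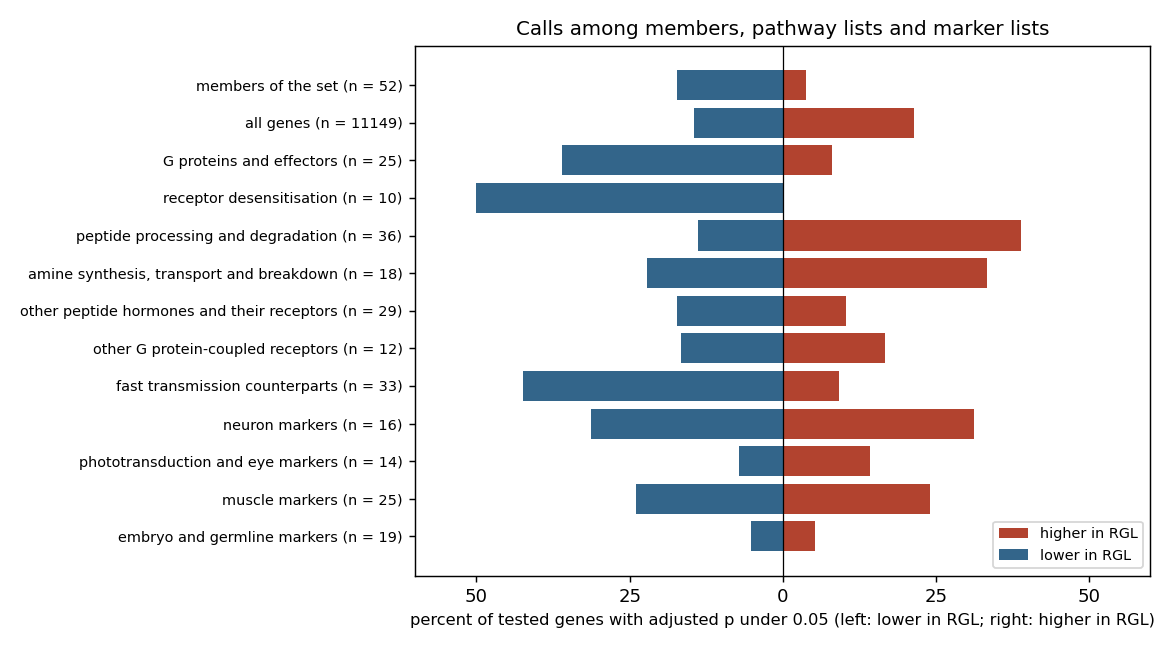
Percent of tested genes with an adjusted p under 0.05, lower in RGL to the left and higher in RGL to the right, for members, for all genes and for each pathway and marker list (n tested beside each name). Members were higher in 3.85% and all genes in 21.4%, while 42.4% of fast transmission subunits were lower, against 14.4% of all genes.

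The authors' deposited table gives its own DESeq2 comparison for 48 of the 55 members. At that table's limits of a 2-fold change and an adjusted p under 0.01, it marks 1 member up, LOC114119520 with a deposited log2 fold change of 1.22, and 1 down, LOC114127106 with -1.33. Over all 14013 listed genes it marks 766 up and 147 down. At an adjusted DESeq2 p under 0.05 alone, 2 members are positive and 11 negative there, beside 2 higher and 9 lower here. All 11 genes called here have the same sign in the authors' deposited table, which rests on the same 6 libraries.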

How the data were processed

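RNA of pooled whole bodies was sequenced as paired-end reads from RGL and SGL, 3 libraries each. Per the submitters' processing notes, fastp 0.22.0 and HISAT2 were used. The counter, strand setting, annotation and build are stated nowhere in the sources used here, so overlapping or antisense genes cannot be told apart. The deposited table, per the file headers, holds read counts for 14013 genes, FPKM, and the log2 fold change and adjusted p-value that the authors obtained with DESeq2. FPKM, which carry no TMM scaling, served only to describe levels per length.

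The strains were compared with edgeR 4.0.16 in R 4.3.3, by its robust quasi-likelihood F test after TMM scaling. The filterByExpr filter (at least 10 counts, at least 15 in total) left 11149 genes, over which p-values were adjusted by Benjamini-Hochberg. Log2 fold changes are RGL over SGL, and SE is their size over the square root of F. Alternatives used DESeq2 1.42.0, limma 3.58.1, other scalings and filters, a replicate block and each library left out. The script was run on simulated counts that held no shift of a single library, so that run says nothing on RGL replicate 1.

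Members, roles and lists were chosen with earlier results of these data known. After product texts were seen, list genes of another role were removed, muscarinic receptors were set apart and the delta subunits were taken out of the opsins. Named were all members that passed, the most abundant of each role and, per pathway list, the called gene with the greatest change in each direction without overlap. Further members and the eye markers were named after their values were seen. Of 55 members, 47 matched the reference table of ASM2018417v2 by symbol, which was used only for neighbours. No library was a copy of another within counting noise (chi-square over degrees of freedom, 6.94 to 123 between libraries of a strain), which does not show that they are separate biological samples. Python 3.11.15, pandas 2.3.3 and matplotlib 3.10.9 made tables and figures.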

Additional observations from a re-analysis of the deposited data

How the results depend on the processing

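The number of members higher in RGL was 2 in all 13 alternatives. The number lower, 9 as reported, was 9 with DESeq2's size factors, the DESeq2 test, limma-voom and other low-count filters, 15 with library totals alone, and between 2 and 17 with each library left out. The number of opsins lower, 4 as reported, was between 2 and 5 with each library left out, 6 with library totals alone and 3 with the block described next. Beside both numbers, 6.96% to 24.9% of all tested genes were lower with each library left out. The share was 20.8% with library totals alone and 11.8% with that block. With the replicate number as a block, 2 members were higher and 6 lower. The numbers carry no stated pairing, and deviations of same-numbered libraries from their strain means correlated at -0.01, -0.03 and -0.02 over genes, so the block is given here only. Of the 11 called members, LOC114119520, LOC114124322, LOC114127106 and LOC114127313 passed in all 13 alternatives, and the others kept their direction in all of them. The abundant LOC114125464, not called, changed sign without RGL replicate 1 (log2 fold change -0.018, and between -0.018 and 0.49 with each library left out). Of 41 tested members not called, 14 had the other sign under at least 1 alternative and 10 were called under at least 1. Of 286 counts of the pathway and marker lists under alternatives, 83 moved by more than 1.5 times. The cause of these changes was not tested. A fit without 1 library has fewer samples. Members of low counts, such as the metabotropic receptors, could show only large differences.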
